A study of Mus musculus with 6 samples.

Results

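Transcription factors that direct differentiation of the hair were followed through RNA sequencing libraries from sorted skin cells of newborn mice. They are Msx1, Msx2, Dlx3, Cux1, Gata3, Trps1, Foxn1, Ovol1 and Vdr, taken by gene symbol as regulators of the hair matrix, shaft and root sheath, and all 9 were present among the 24453 rows of each count file. The study compared 3 libraries of a control genotype with 3 of genotype Ring1a-/- Ring1b-/-, here called 2KO, all from back skin at postnatal day 0. In 2KO both RING1 ubiquitin ligases, the catalytic subunits of Polycomb repressive complex 1 (PRC1), are to be lost. The sources used here give neither the alleles of the control animals nor the promoter or recombinase by which Ring1b was deleted. Hair follicle cells is the labels' name for the sorted population, but the gate in the attached protocol is one for interfollicular epidermis (EpCAM positive, Sca1 positive, high α6-integrin), and which of these gave the libraries is not given. Nothing says that the libraries came from separate animals, so the p-values measure only the spread between these libraries.

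A growing hair follicle holds a proliferating matrix at its base, whose daughters enter the concentric layers of the inner root sheath and the hair shaft. Each layer is specified by its own transcription factors, which switch on keratins and other structural genes of that layer. MSX1, MSX2 and DLX3 bind DNA through a homeodomain, and MSX2 and DLX3 act in matrix and shaft cells downstream of BMP and WNT signals. CUX1 carries cut repeats and a homeodomain, and GATA3 and TRPS1 carry GATA-type zinc fingers, GATA3 being a regulator of the inner root sheath. FOXN1, the forkhead factor lost in nude mice, is needed for keratinization of the shaft. OVOL1 is a zinc finger factor that limits proliferation of differentiating keratinocytes, and VDR, the vitamin D receptor, is a nuclear receptor whose loss causes alopecia. PRC1 is a chromatin complex that represses developmental genes, many of which have promoters rich in CG dinucleotides.

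The libraries held between 24759973 and 30798564 counts, so that 1 count equals between 0.0323 and 0.0392 CPM (the usual unit of counts relative to the library total, here after TMM scaling). Neither targeted gene set the groups apart. The Ring1 level (encoding RING1A) ran from 3.37 to 22.4 CPM in the libraries labelled control and from 1.84 to 14.1 CPM in those labelled 2KO, and Rnf2 (RING1B) from 47.1 to 79.5 and from 66.4 to 89.2 CPM. A count over the whole gene is no check of a deletion that leaves the rest transcribed, and directions below are between libraries so labelled. Markers of follicle epithelium were present, with a summed level of 2373 to 2929 CPM over 10 genes in control and 2259 to 2827 CPM in 2KO. Of these 10, Lgr5, Shh and Lrig1 fell and 7 did not pass the test, where 2.42% of all tested genes fell. On average 8 of the 10 were lower in 2KO. The 2 higher ones, named after their values were seen, were Krt17 (428 to 790 CPM) and Krt79 (248 to 521 CPM). Neither of them passed (edgeR adjusted p = 0.0514 and 0.157). The similar sums thus hold differences of mean in both directions, of which only falls passed. Ly6a, which encodes Sca1, lay between 1.92 and 7.28 CPM in the 6 libraries. Xist was high in control replicate 3 and 2KO replicates 1 and 2 (4555 to 5361 CPM) and low in the other 3 (2.48 to 10.4 CPM).

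RefSeq start sites (GRCm38.p6, all on the minus strand) were found for 6 of the 9 genes, namely Msx1, Msx2, Cux1, Gata3, Foxn1 and Vdr. The windows of 300 bases, from 250 before to 50 after the start, held 29 CG dinucleotides for Msx1, 25 for Cux1, 22 for both Msx2 and Gata3, 15 for Vdr and 8 for Foxn1. Over 32851 such windows of mouse genes the median was 7. Fewer CG were held by 87.1% of windows than by that of Msx1, and by 81.6% than by that of Cux1. The share was 76.9% for Msx2 and Gata3, 65.4% for Vdr and 51.35% for Foxn1. The stretches before the start are shown for Vdr, the factor with the smallest adjusted p, and for Gata3, whose mean level was nearly the same in both groups, with every CG in capitals. That of Vdr is chr15:97908311-97908546, cut short where an annotated exon begins, and holds 11, and that of Gata3 is chr2:9878601-9878850 and holds 19. Both stretches lie inside the annotated spans of their genes, 97854425 to 97910630 and 9857078 to 9890034, so they are not upstream of the genes. That of Gata3 also lies inside Gm13256, an annotated antisense gene (9877256 to 9878869).
Vdr: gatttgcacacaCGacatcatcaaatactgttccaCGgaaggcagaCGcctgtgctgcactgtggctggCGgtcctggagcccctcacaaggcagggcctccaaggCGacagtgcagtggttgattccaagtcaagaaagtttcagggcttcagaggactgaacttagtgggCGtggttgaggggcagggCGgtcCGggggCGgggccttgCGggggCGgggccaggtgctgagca
Gata3: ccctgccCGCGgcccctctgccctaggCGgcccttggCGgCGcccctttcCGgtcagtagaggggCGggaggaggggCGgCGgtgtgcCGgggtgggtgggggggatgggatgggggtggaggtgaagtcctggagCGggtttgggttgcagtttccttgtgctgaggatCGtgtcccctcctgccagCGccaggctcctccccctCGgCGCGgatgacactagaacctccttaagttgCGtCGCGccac
Each window was searched on both strands for short cores. The homeodomain core TAATTG was found in 8.0% of all windows. The palindromic homeodomain core TAATTA, which differs from it in the last letter only, was in 5.29%. The GATA-factor core was searched as the letters AGATAA, held by 11.2% of windows. The core bound by LEF1 and its relatives was searched as CTTTGA, held by 16.0% of windows, and the nuclear receptor half-site as GGTTCA, held by 10.4%. Among the 6 windows the only matches were a TAATTA in Msx2 and one in Foxn1, 187 and 29 bases before the RefSeq start. The Msx2 match lies inside the annotated span of its gene (53466884 to 53473074), the Foxn1 match outside its own (78357577 to 78386558). They are shown in capitals because Msx2 fell and Foxn1 did not pass while both carry the match (chr13:53472950-53472979 and chr11:78386620-78386649).
Msx2: tgactgctcctgTAATTAactcctaattta
Foxn1: aagctgatatcaTAATTAttggctcaccca
A match describes these letters only and does not show binding.

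Vdr, Dlx3 and Msx2 fell in the libraries labelled 2KO, by 64.4%, 51.3% and 49.8% of the control mean, and the other 6 factors did not pass the threshold. The test was edgeR's quasi-likelihood test on the counts, with Benjamini-Hochberg adjustment across the 14972 tested genes and a threshold of 0.05. All 9 factors passed the low-count filter and were tested. Of all tested genes 2.42% fell and 6.61% rose, 9.02% together, against 3 and 0 of the 9 factors. At an unadjusted p under 0.05, 5 factors were lower and 1 was higher, where 8.90% and 12.7% of all tested genes were, and DESeq2 and limma-voom made the same 3 calls as edgeR. The log2 fold change (2KO minus control) was below 0 for 8 of the 9 and above 0 for Trps1, with a median of -0.77, where 51.4% of all tested genes were below 0 and their median was -0.02. For 4 factors (Vdr, Dlx3, Msx2 and Ovol1) every 2KO library lay below every control library, as was so for 13.1% of all tested genes.

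**Figure D1:**
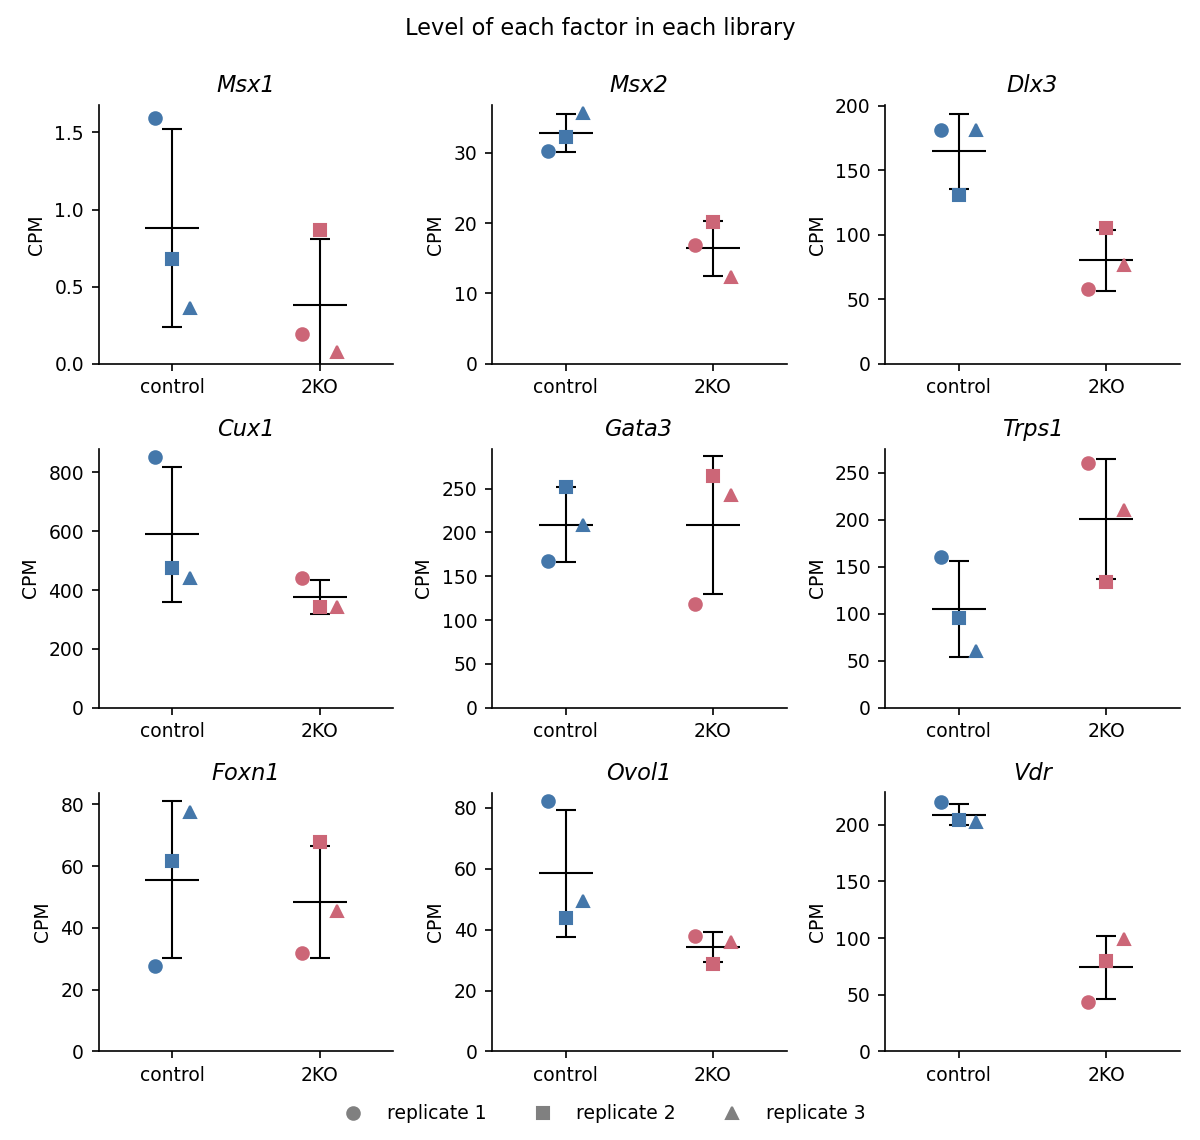
TMM-scaled CPM of each factor in each library, 1 panel per gene with its own linear axis from 0; symbols mark replicates 1 to 3, the long bar is the mean and the error bar the SD (n = 3 libraries per group, and for Msx1 the lower end in 2KO passes 0 and is not drawn). The groups are apart for Msx2, Dlx3, Ovol1 and Vdr, with Vdr at 202 to 219.6 CPM in control and 43.8 to 99.03 CPM in 2KO.

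Vdr (ENSMUSG00000022479, chromosome 15, 97854425 to 97910630) was at 219.6, 204 and 202 CPM in control replicates 1, 2 and 3 and at 43.8, 79.8 and 99.03 CPM in 2KO replicates 1, 2 and 3. The 3 control libraries lay close together and all 3 of 2KO lay below 50% of any of them. The mean went from 209 ± 9.43 to 74.2 ± 28.0 CPM (SD, n = 3), 2.81-fold lower (log2 fold change -1.49, SE 0.27, 95% interval -2.10 to -0.89, edgeR adjusted p = 0.00934). Only 3.22% of tested genes had a smaller p. In bulk samples such as these, fewer cells of a type and less RNA per cell cannot be told apart. Vdr was called lower in all 17 alternative fits, which include leaving out each library in turn (largest adjusted p = 0.0463, with both replicate-3 libraries left out).

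The other genes of vitamin D metabolism and of the receptor's partners did not pass. None of 13 tested members was called by edgeR, 4 were lower and none higher at an unadjusted p under 0.05 (8.90% and 12.7% of all tested genes), and DESeq2 called 1 lower and limma-voom none. Their median log2 fold change was -0.22, against -0.02 over all tested genes. Rxra, the dimer partner of VDR, was at 669 ± 47.3 CPM in control and 577 ± 92.6 in 2KO (edgeR adjusted p = 0.549).

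Dlx3 (ENSMUSG00000001510, chromosome 11, 95120119 to 95125296) was at 181.4, 131 and 181.5 CPM in control and at 58.3, 105.6 and 76.5 CPM in 2KO, in the order of the replicates. The groups did not overlap, control replicate 2 and 2KO replicate 2 being the nearest pair. The level was 2.05-fold lower in 2KO (log2 fold change -1.04, SE 0.24, 95% interval -1.58 to -0.49, edgeR adjusted p = 0.0275). The adjusted p was 0.0900 without control replicate 1, 0.0955 without control replicate 3, 0.0610 without 2KO replicate 1 and 0.102 without 2KO replicate 3, so the call did not hold in these fits. It was also missed with Xist as a covariate (0.0588) and without both replicate-1 (0.105) or both replicate-3 libraries (0.231), while the direction held throughout.

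Msx2 (ENSMUSG00000021469, chromosome 13, 53466884 to 53473074), whose TAATTA before the RefSeq start is shown above, was at 30.3, 32.3 and 35.6 CPM in control and at 16.9, 20.1 and 12.3 CPM in 2KO. All 2KO libraries were below all control libraries. The level was 1.99-fold lower (log2 fold change -0.99, SE 0.25, 95% interval -1.55 to -0.44, edgeR adjusted p = 0.0365). The call was lost without control replicate 1, 2 or 3 (adjusted p = 0.0780, 0.0913 and 0.126), without 2KO replicate 1 or 3 (0.0669 and 0.102), and without both replicate-1 (0.0903) or both replicate-3 libraries (0.239). The log2 fold change stayed between -1.17 and -0.76 in the 17 alternatives.

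Msx1 (ENSMUSG00000048450, chromosome 5, 37820485 to 37824583), the paralog of Msx2, was near the limit of detection, with 45, 21 and 11 counts in control and 5, 26 and 2 in 2KO. Levels of 0.360 to 1.6 CPM and of 0.0785 to 0.868 CPM overlapped. Its log2 fold change of -1.18 had the widest error of the 9 (SE 1.06, 95% interval -3.55 to 1.19, edgeR adjusted p = 0.599).

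**Figure D2:**
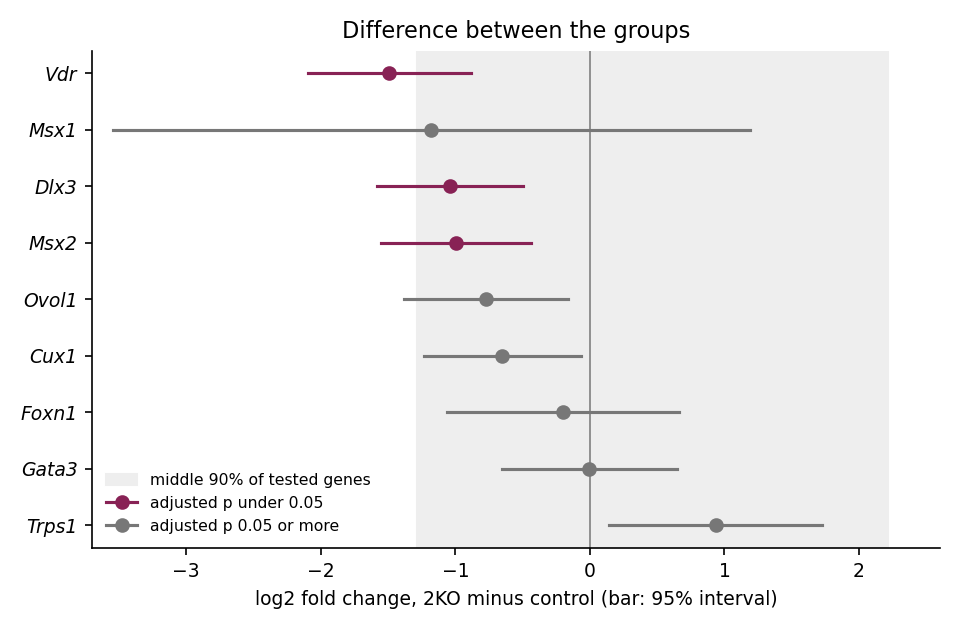
Log2 fold change of each factor (2KO minus control, horizontal axis) with its 95% interval, from edgeR's fit of all 6 libraries; dark symbols passed the adjusted p of 0.05, and the shaded band spans the 5th to the 95th percentile of all tested genes (-1.28 to 2.21). Only Vdr lies outside the band, and the interval of Msx1 is the widest.

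Ovol1 and Cux1 were lower in 2KO on average without passing. Ovol1 (ENSMUSG00000024922, chromosome 19, 5549136 to 5560646) was at 82.4, 43.8 and 49.4 CPM in control and at 38.1, 28.8 and 35.9 CPM in 2KO. The groups did not overlap, but control replicate 1 was far above the other control libraries (log2 fold change -0.77, SE 0.27, unadjusted p = 0.0178, edgeR adjusted p = 0.121). Without that library the log2 fold change was -0.43 (adjusted p = 0.410). Cux1 (ENSMUSG00000029705, chromosome 5, 136248135 to 136567490) had the most counts of the 9, at 854, 475 and 439 CPM in control and 442, 341 and 344 CPM in 2KO. Control replicate 3 and 2KO replicate 1 overlapped by a narrow margin (log2 fold change -0.65, SE 0.26, unadjusted p = 0.0328, edgeR adjusted p = 0.180). Without control replicate 1 the log2 fold change of Cux1 was -0.27 (adjusted p = 0.534). Cux1 also encodes CASP, a Golgi protein, and counts over the whole gene do not separate the products.

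Control replicate 1, the library highest in both, also had the highest summed level of 10 proliferation genes, 3498 CPM, against 1594 and 1922 CPM in the other control libraries and 1808, 1280 and 1030 CPM in 2KO. Of these 10 genes Mcm2, Mcm5, Rrm2, Ccna2 and Pcna fell and 5 did not pass, where 2.42% of all tested genes fell. Mcm2, a replication helicase subunit, went from 101.2 ± 8.37 to 34.4 ± 10.2 CPM (edgeR adjusted p = 0.00500). The number that fell was 1 without control replicate 1 or 3 or 2KO replicate 2, 2 without 2KO replicate 3 and 3 without control replicate 2, 2 with Xist as a covariate, 3 without both replicate-1 and 1 without both replicate-3 libraries. The part of proliferation in the levels of Ovol1 and Cux1 was not tested.

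Gata3 (ENSMUSG00000015619, chromosome 2, 9857078 to 9890034) showed nearly the same mean in both groups, 209 ± 42.3 CPM in control and 208 ± 78.6 in 2KO. The libraries were at 167, 251.5 and 208 CPM in control and at 118, 264 and 243 CPM in 2KO, with the replicate-1 library the lowest of each group. The log2 fold change was -0.00 (SE 0.29, edgeR adjusted p = 0.997), and its 95% interval of -0.65 to 0.65 leaves room for a change of either sign. The gene 4930412O13Rik, inside the span of Gata3 on the other strand (9881252 to 9883921), was counted separately, at 18.5 to 45.0 CPM. GATA3 is also a factor of T cells. Of the T cell receptor genes Cd3d was at 0 counts in all 6 libraries, Cd3g was at 0.0327 CPM in control replicate 3 and at 0 in the others, and Cd3e was at 0.0355, 0.0969 and 0.556 CPM in control and at 0, 0 and 1.099 CPM in 2KO. The summed level of 7 immune markers was 8.56 to 15.3 CPM in control and 6.38 to 15.3 CPM in 2KO, and the part of T cells in the level of Gata3 was not tested.

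Trps1 (ENSMUSG00000038679, chromosome 15, 50654752 to 50890463) was the single factor higher on average in 2KO. It was at 161, 95.3 and 60.2 CPM in control and at 260.5, 134 and 210.02 CPM in 2KO. Control replicate 1 lay above 2KO replicate 2, so the groups overlapped (1.91-fold, log2 fold change 0.93, SE 0.35, unadjusted p = 0.0257, edgeR adjusted p = 0.154). Trps1 passed without control replicate 1 (log2 fold change 1.39, adjusted p = 0.0337). TRPS1 is also made by dermal cells of the follicle. The 11 dermal fibroblast and papilla markers summed to 510 to 914 CPM in control and 736 to 858 CPM in 2KO, with Twist2 and Corin under 1 CPM in every library. Of 9 tested markers Pdgfra rose, from 0.896 ± 0.315 to 10.2 ± 5.23 CPM (edgeR adjusted p = 0.00348), and 8 did not pass. Their part in the level of Trps1 was not tested.

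Foxn1 (ENSMUSG00000002057, chromosome 11, 78357577 to 78386558) varied more within the groups than between them. It was at 27.7, 61.6 and 77.7 CPM in control and at 32.0, 67.9 and 45.5 CPM in 2KO (log2 fold change -0.20, SE 0.38, 95% interval -1.06 to 0.66, edgeR adjusted p = 0.832). The replicate-1 library was the lowest in each group. Among all 12519 other genes with a mean of at least 2 CPM, the one most like Foxn1 over the 6 libraries was Ivl, which encodes involucrin of the cornified envelope (Pearson r = 0.997 of log2 CPM). Ivl was low, at 0.248 to 4.97 CPM in control and 0.431 to 4.31 CPM in 2KO. The correlation is the highest of many on 6 libraries, and is a description. The 7 suprabasal epidermis markers in the files summed to 3101, 9267 and 11510 CPM in control and to 1223, 3789 and 3583 CPM in 2KO, also lowest in both replicate-1 libraries. Of these 7 Krt77 fell and 6 did not pass. Krt1 and Krt10 made up most of the sum in each library. On average 4 of the 7 were lower in 2KO, and Krtdap, Lor and Sbsn were higher (log2 fold change 0.44, 0.75 and 0.25). The part of suprabasal cells in the level of Foxn1 was not tested.

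The spread within groups differed among the factors. On the log2 scale the pooled within-group SD was 0.27 for Msx2, 0.36 for Dlx3, 0.37 for Ovol1, 0.40 for Cux1 and 0.43 for Vdr, against a median of 0.39 over all tested genes. It was 0.50 for Gata3, 0.61 for Trps1, 0.67 for Foxn1 and 1.19 for Msx1. Msx2 and Dlx3 were thus among the 3 factors with the least spread.

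Per kb of annotated exon (the union of all GENCODE exons of a gene), Dlx3 had the highest mean level in control, 63.1 ± 11.2 CPM per kb. It was followed by Gata3 (52.5 ± 10.6), Vdr (36.9 ± 1.67), Cux1 (29.4 ± 11.5), Foxn1 (17.3 ± 7.94), Ovol1 (16.8 ± 5.98), Msx2 (9.98 ± 0.82), Trps1 (7.88 ± 3.81) and Msx1 (0.284 ± 0.207). Of the neighbours in this order, only Gata3 against Vdr, Ovol1 against Msx2 and Trps1 against Msx1 did not overlap over the control libraries. In 2KO Gata3 came first (52.4 ± 19.8 CPM per kb), followed by Dlx3 (30.7 ± 9.15), Cux1 (18.7 ± 2.87), Foxn1 (15.1 ± 5.63) and Trps1 (15.0 ± 4.77). Vdr moved from the third place to the sixth (13.1 ± 4.96), and its libraries overlapped those of Cux1, Foxn1 and Trps1. It was ahead of Ovol1 (9.83 ± 1.39), Msx2 (5.01 ± 1.198) and Msx1 (0.123 ± 0.138). Of the neighbours in the 2KO order, only Dlx3 against Cux1, Ovol1 against Msx2 and Msx2 against Msx1 did not overlap. The long exon union of Cux1 includes alternative ends, which lowers its value per kb.

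**Figure D3:**
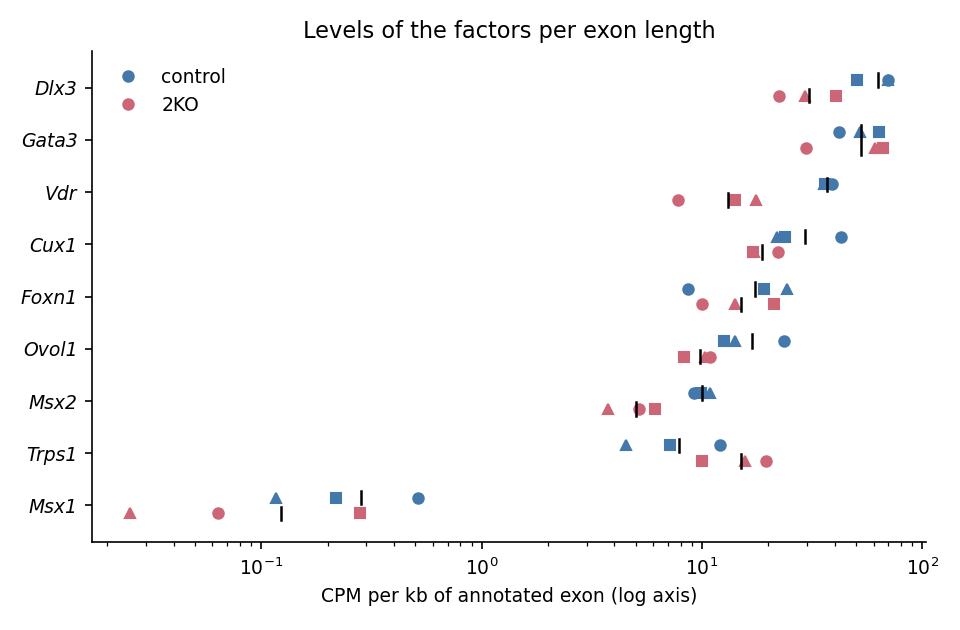
Level per kb of annotated exon of each factor (log axis, TMM-scaled CPM per kb), ordered by the control mean; symbols are libraries (circle, square and triangle for replicates 1, 2 and 3) and black bars the group means (n = 3). Msx1 is far below the other 8. The 2KO mean lies to the left of the control mean for every factor but Trps1, by little for Gata3 and Foxn1. Only Dlx3, Vdr and Msx2 passed the threshold.

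For the factors that fell, the genes most alike over the 6 libraries (Pearson r of log2 CPM, among 12519 genes with a mean of at least 2 CPM) were as follows. For Vdr they included Irx2, a homeobox gene (r = 0.996), and Ccdc82 (0.994), both of which also fell (edgeR adjusted p = 0.0305 and 0.0365). For Dlx3 they were Nfya, a subunit of the CCAAT-binding factor NF-Y (0.994), Reep5 (0.991) and Tmem184a (0.990), and for Msx2 Tmem242 (0.996), Serbp1 (0.993) and Cryab (0.993), none of which passed. For the others the nearest gene was Fbf1 for Msx1 (0.981), Ncapg, a condensin subunit, for Cux1 (0.998), Zfp467 for Gata3 (0.994), Zc3h12c for Trps1 (0.997) and Rgs2 for Ovol1 (0.996). These values rest on 6 libraries that share depth and group differences, and are a description.

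Paralogs and partners of the factors were called in both directions. Of 14 tested genes in the list of paralogs and dimer partners, Gata4 and Gata2 rose, Dlx2 fell and 11 did not pass, with a median log2 fold change of 0.48. Beside this count and those of the lists below stand the shares over all tested genes, 6.61% that rose and 2.42% that fell. Gata4, a factor of heart and endoderm with the same type of zinc finger as Gata3, went from 0.0453 ± 0.0222 to 21.4 ± 3.17 CPM (log2 fold change 8.77, edgeR adjusted p = 3.50e-05). Gata2 went from 0.288 ± 0.0376 to 2.69 ± 0.748 CPM (adjusted p = 0.0185), and Dlx2, a homeobox gene related to Dlx3, from 11.7 ± 2.25 to 3.78 ± 1.24 CPM (adjusted p = 0.0258). The call of Gata2 was lost without control replicate 1, 2 or 3 or 2KO replicate 1 or 3 (adjusted p from 0.0505 to 0.0701), and that of Dlx2 without control replicate 1, 2 or 3 or 2KO replicate 2 or 3 (0.0562 to 0.0932). The other 6 listed genes had too few counts and were not tested.

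Other transcription factors of the follicle included 4 that fell among 23 tested, while 19 did not pass and the median was -0.41. Prdm1, which encodes BLIMP1, a repressor active in follicle and sebaceous differentiation, went from 80.3 ± 25.7 to 20.6 ± 7.02 CPM (log2 fold change -1.96, edgeR adjusted p = 0.00613) and kept its call without any 1 library. Hoxc13, a regulator of hair keratins, Nfib, a factor of follicle stem cells, and Sox21, a factor of the hair cuticle, fell by about as much as Dlx3 and Msx2 (log2 fold change -1.09, -1.07 and -1.02, edgeR adjusted p = 0.0274, 0.0342 and 0.0305). The number that fell was 2 without control replicate 1 and 1 without 2KO replicate 2, and also 1 with Xist as a covariate or without both replicate-3 libraries. Hoxc13 was lost without control replicate 1 or 2 or 2KO replicate 1 or 2 (adjusted p from 0.0540 to 0.105), Nfib without control replicate 1 or 2KO replicate 2 or 3 (0.0821 to 0.121), and Sox21 without control replicate 2 or 3 or 2KO replicate 1 or 2 (0.0528 to 0.0940).

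The structural genes of the inner root sheath and shaft that fell had larger fold changes than the factors. Of 8 tested inner root sheath genes 6 fell (Krt25, Krt26, Krt27, Krt28, Krt71 and Krt73) and 2 did not pass, with a median log2 fold change of -5.85, which is the same with Krt25, at 0 counts in 2KO, set to its bound. Krt71, a keratin of the inner root sheath, went from 15.6 ± 4.93 to 0.271 ± 0.224 CPM (edgeR adjusted p = 0.00100). Of 6 tested hair shaft genes, Dsg4, a desmosomal cadherin of the shaft, and Krt35, a hair keratin, fell and 4 did not pass (median -1.78), while 9 of the 15 listed had too few counts to be tested, Dsg4 going from 9.19 ± 2.56 to 0.217 ± 0.275 CPM (edgeR adjusted p = 0.00422). Krt85, another hair keratin, named after its values were seen, lay the other way without passing, at 0.955 ± 0.767 CPM in control and 4.40 ± 1.92 in 2KO (log2 fold change 2.2, edgeR adjusted p = 0.175), with every 2KO library above every control library. The call of Krt26 was lost without control replicate 1, 2 or 3 or 2KO replicate 1 or 2 (adjusted p from 0.0650 to 0.0924).

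**Figure D4:**
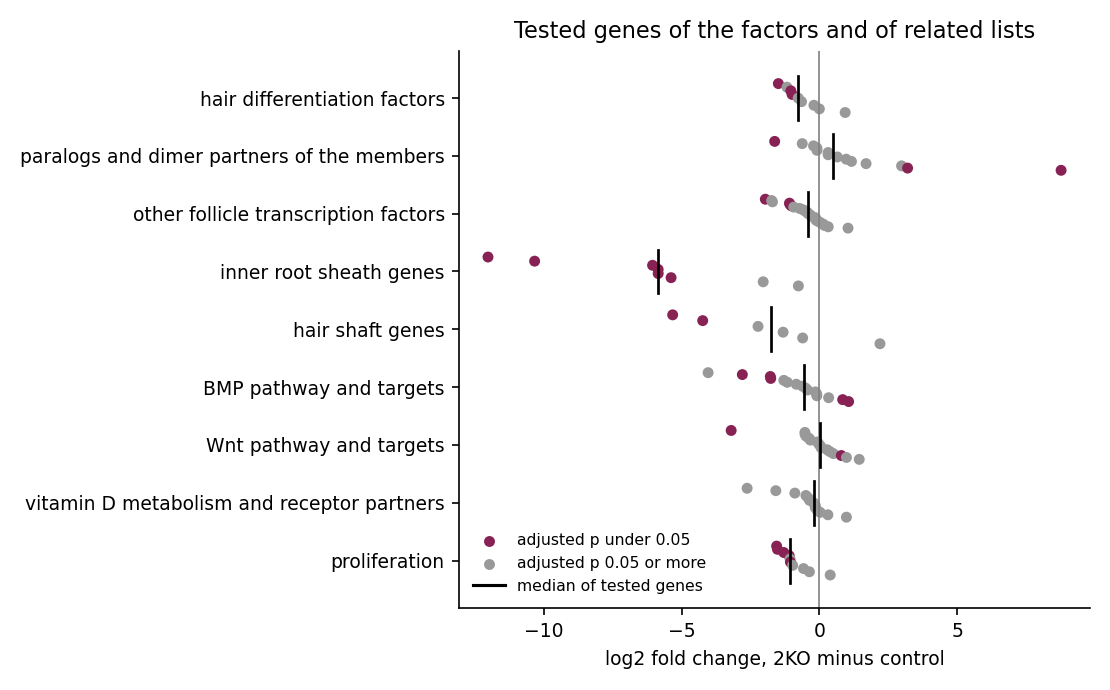
Log2 fold change (2KO minus control, horizontal axis) of every tested gene of the 9 factors and of 8 related gene lists; each point is a gene, dark where the adjusted p was under 0.05, and the black bar is the median. The factors lie between -1.49 and 0.93, and the inner root sheath genes reach lower, with a median of -5.85.

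BMP and Wnt pathway genes mostly did not pass, and those called lay in both directions. The log2 fold change was below 0 for 13 of 16 tested BMP genes and for 8 of 16 tested Wnt genes. At an unadjusted p under 0.05 in edgeR's test, 8 BMP genes were lower and 2 higher, and 2 Wnt genes were lower and 3 higher. Of all tested genes 8.90% were lower and 12.7% higher at that level. Of 16 tested BMP pathway genes, Id1, Id3 and Id4, targets of BMP signaling that encode inhibitors of helix-loop-helix factors, fell, the ligand genes Bmp4 and Bmp7 rose, and 11 did not pass (median -0.56). Id1 went from 15.9 ± 7.79 to 2.28 ± 1.41 CPM (log2 fold change -2.80, edgeR adjusted p = 0.0109) and Bmp4 from 40.9 ± 5.15 to 85.2 ± 19.8 CPM (log2 fold change 1.06, adjusted p = 0.0172). The call of Bmp4 was lost without control replicate 3 (adjusted p = 0.0763), that of Bmp7 without control replicate 1, 2 or 3 or 2KO replicate 2 or 3 (0.0609 to 0.0963), that of Id4 without 2KO replicate 2 (0.0516) and that of Id3 without control replicate 1 or 2KO replicate 2 or 3 (0.117 to 0.134). The number of BMP genes that fell was 6 without 2KO replicate 1 and 1 without 2KO replicate 2 and 1 with Xist as a covariate. Of 16 tested Wnt pathway genes Lgr5, a stem cell receptor and Wnt target, fell from 119 ± 70.8 to 12.9 ± 10.7 CPM (edgeR adjusted p = 0.0230). Ctnnb1, which encodes β-catenin, rose from 1571 ± 203 to 2723 ± 209.7 CPM (adjusted p = 0.0231), and 14 did not pass (median 0.01). Lgr5 lost its call without control replicate 1 (0.0640) or 2KO replicate 3 (0.0872), and Ctnnb1 without control replicate 2 (0.109) or 3 (0.0695).

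**Figure D5:**
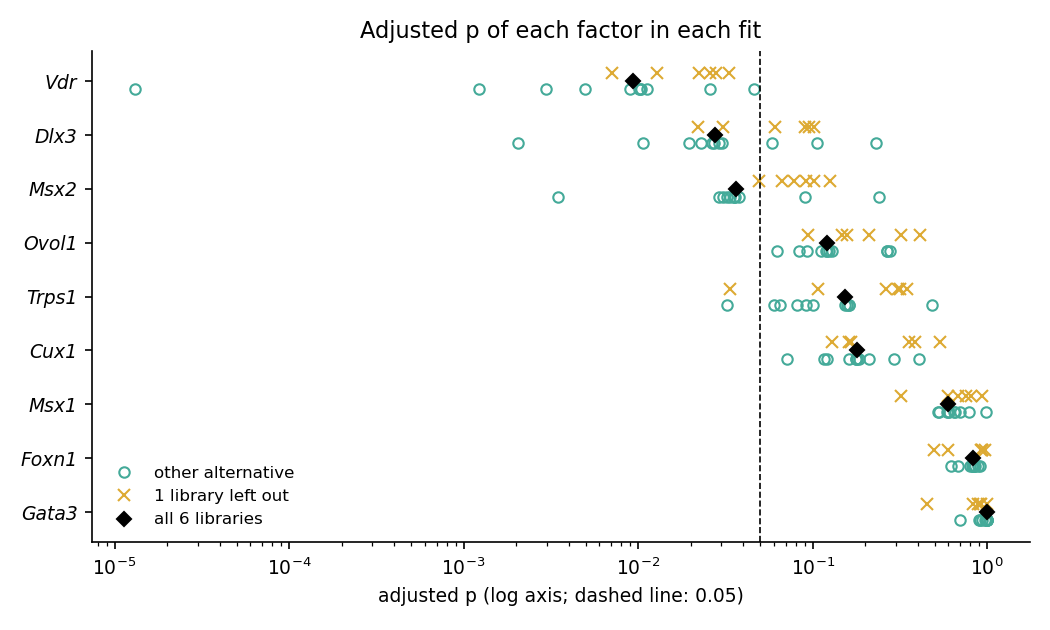
Adjusted p of each factor (log axis) in the fit of all 6 libraries (diamonds), in the 6 fits that leave out 1 library (crosses) and in the other alternative fits (circles); the dashed line is 0.05. Vdr stays to the left of the line in every fit, Dlx3, Msx2 and Trps1 lie on both sides, and Ovol1, Cux1, Gata3, Foxn1 and Msx1 stay to the right.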

How the data were processed

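The authors deposited counts, whole numbers of reads per gene symbol, in 1 file per library and with no normalization. The submitters' processing notes name the build mm10 and the tools HTSeq (0.6.1), TopHat2 (2.0.13), DESeq2 (1.6.3) and Cufflinks (2.2.1). The role of each tool, the annotation, the strand setting and any read filters are, in the sources used here, not given. Per the labels' protocols, RNA was amplified before library construction, without molecular identifiers, so spread includes amplification.

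From these deposited counts, the filterByExpr function (edgeR 4.0.16 in R 4.3.3) left 14972 genes, which were TMM-scaled and compared with glmQLFit and glmQLFTest without covariates. The SE of a log2 fold change is its size divided by the root of F, and intervals use the moderated degrees of freedom (9.53). On simulated counts (14972 genes), 100 genes were changed 2-fold and 100 others 4-fold, all with a mean of at least 2 CPM. Of these, 16% and 74% were recovered. The real fit called 1351 genes, and the adjustment depends on how many genes change, so these rates need not hold for it. The 17 alternatives include DESeq2 1.42.0, limma-voom (limma 3.58.1), other scalings and filters, a replicate block, Xist as a covariate and left-out libraries. Exon lengths and coordinates come from GENCODE vM21 on GRCm38, which is mm10, and start-site windows from RefSeq (GRCm38.p6). Members, lists and tests were chosen with earlier results of these data known. All 9 members are named; of each list, up to 6 genes past the threshold by size of change or, with none, the 2 most abundant; of the most alike genes, the 3 highest correlations per member, of which the text gives only the first for factors that did not pass. A gene that this rule names is not reported here.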

Additional observations from a re-analysis of the deposited data

How the results depend on the processing

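The direction of Vdr, Dlx3, Msx2, Cux1, Ovol1 and Trps1 held in all 17 alternatives and that of Msx1 in the 16 in which it was tested, and Vdr alone was called in every one. The number of factors that fell was 1 with both replicate-1 or both replicate-3 libraries left out, and 1 to 3 with 1 library left out. The number that rose was 1 with the replicate block (Trps1, log2 fold change 0.99, adjusted p = 0.0323) and 0 to 1 with 1 library left out. Over all genes, the number higher in 2KO was 309 without both replicate-3 libraries and 615 to 854 with 1 library left out, and the number lower was 733 with DESeq2, 228 with Xist as a covariate, 72 without both replicate-3 libraries and 184 to 347 with 1 library left out. The causes were not tested. The log2 fold change of Gata3, near 0, turned positive with DESeq2 (0.0018), RLE size factors (0.0018), Rn45s left out (0.0019), Xist as a covariate (0.0404), without control replicate 2 (0.15), without 2KO replicate 1 (0.29) and without both replicate-1 libraries (0.16), and with 1 library left out it ranged from -0.20 to 0.29. That of Foxn1 did so without control replicate 3 (0.12), 2KO replicate 1 (0.04) or both replicate-3 libraries (0.16), with a range of -0.51 to 0.12 with 1 library left out. The log2 fold change of Ring1 turned positive with Xist as a covariate (0.0429), and that of Rnf2 turned to -0.0544 without both replicate-3 libraries. Without these libraries that of Ring1 was -2.18 (SE 0.64, edgeR adjusted p = 0.145), against -0.96 (SE 0.76) with all libraries. Pairing by replicate number was checked by the correlation, across genes, of deviations from the group means. It was 0.29, 0.09 and -0.08 for numbers 1, 2 and 3. Control replicate 1 correlated best with its own number, while control replicates 2 and 3 correlated better with another number than with their own. Deviations within a group cancel out, so the check cannot decide whether libraries that share a replicate number share anything more. The replicate block gave 1142 higher and 540 lower genes, with 8 other follicle transcription factors and 5 BMP pathway genes lower. Msx1 had the lowest counts of the 9, 2 to 45 per library, and the part of counting depth in its wide interval was not tested. Without both replicate-3 libraries the calls of Id1, Id3, Id4, Bmp4 and Bmp7 (adjusted p from 0.0623 to 0.174), Lgr5 (0.145), Ctnnb1 (0.146) and Dsg4 (0.0523) were lost with the direction kept. Those of Gata2, Dlx2, Krt26, Hoxc13, Nfib and Sox21 were lost there too (0.0708 to 0.139). With Xist as a covariate the calls of Id4 (0.0538), Id3 (0.152), Bmp4 (0.0586) and Lgr5 (0.0922) were lost. Dlx2, Krt26, Hoxc13, Nfib and Sox21 were also missed in that fit (0.0553 to 0.110). Without both replicate-1 libraries Gata2, Dlx2, Krt26, Hoxc13 and Bmp4 were missed (0.0599 to 0.131). In limma-voom Id3 was missed (0.0516).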
